A study of Saccharomyces cerevisiae with 5 samples.

Results

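The genes described here carry out fatty acid synthesis, desaturation, elongation and activation in budding yeast. They were chosen by name as 10 genes (ACC1, FAS1, FAS2, OLE1, ELO1, ELO2, ELO3, FAA1, FAA3 and FAA4) of the 5886 listed in the study's expression tables. The study, whose title names lower protein kinase A activity and longer replicative lifespan, compared Saccharomyces cerevisiae that lack SUL1, a plasma membrane sulfate transporter, with a wild type. There were 3 knockout libraries of strain BY4741 (S288C background) and 2 wild-type libraries named WT4741, and a further wild-type replicate mentioned in the design text was not analysed here. All cultures grew at 30 °C in YPD (2% glucose, 2% peptone, 1% yeast extract), and an OD600 of 0.6 is given for the knockout only. BY4741 is haploid and carries marker deletions that both groups share. One of these is MET17, the enzyme that builds homocysteine from sulfide, which was listed at 0 FPKM in all 5 libraries. The labels call the libraries biological replicates and do not say whether the knockout was 1 clone or several.

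Yeast builds fatty acids in the cytosol. Acetyl-CoA carboxylase (Acc1) makes malonyl-CoA in the committed step, and a large complex of beta (Fas1) and alpha (Fas2) subunits uses it to build saturated acyl chains. The desaturase Ole1 introduces the double bond that keeps membranes fluid, the Elo enzymes lengthen chains in the endoplasmic reticulum, and the Faa enzymes attach coenzyme A to free fatty acids. The activators Ino2 and Ino4 bind together to DNA with the core CATGTG and are known to act on ACC1, FAS1 and FAS2 as well as on phospholipid genes.

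The 800 bases before each start codon were searched for this core on both strands, and the matches are shown to give the sequence context of each gene that carries it. It occurred before 6 of the 10 genes and before 21.3% of the 5879 genes searched. Each line gives the reference R64 sequence, 5′ to 3′ on the gene's strand, with the core in capitals (CATGTG, or CACATG where it lies on the other strand). ACC1 has a pair of matches, 342 and 716 bases before its start codon.
ACC1, 342 bases before the start, chrXIV:661699-661728, minus strand: gagtgatcggtgCATGTGtttataaaagtt
ACC1, 716 bases before the start, chrXIV:662073-662102, minus strand: cgttaaaatcttCACATGgcccggccgcgc
FAS1, 704 bases before the start, chrXI:99955-99984, plus strand: ggccaaaaacttCACATGccgcccagccaa
FAS2, 232 bases before the start, chrXVI:108408-108437, plus strand: ctcccgcgttttCACATGctacctcattcg
OLE1, 766 bases before the start, chrVII:397850-397879, plus strand: aaaaataaatgaCACATGgaaataagtcaa
ELO2, 167 bases before the start, chrIII:190413-190442, plus strand: tttgtacgtattCACATGtcctggcgtgcg
FAA1, 399 bases before the start, chrXV:908932-908961, plus strand: catgatctccgcCATGTGaatatttatgca

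None of the 7 matches lay inside another listed gene. The longer form CATGTGAA, chosen after these matches were seen, was present before ACC1, FAS1, FAS2, ELO2 and FAA1, 5 of the 10, and before 2.11% of all genes searched. The core of the stress response element, CCCCT on either strand, occurred before 6 of the 10 genes and before 48.2% of all genes, and overlapped none of the CATGTG matches. A match describes these letters and does not show a bound site.

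The deposited values are FPKM, fragments counted per kilobase of transcript relative to the library total, so levels of different genes can be set side by side. How the libraries were scaled against each other is not given in the sources used here. Depth estimated from the steps between low values was 22550000 to 24950000 fragments per library, which puts at least 609 fragments behind every value of the 10 genes. SUL1 was listed at 0 FPKM in the 3 knockout libraries and at 8.28 and 9.78 FPKM in the wild type, so the transcript followed the label. Before the results, 1 library has to be named. Knockout replicate 2 lay closer to wild-type replicate 1 (median absolute log2 difference over all tested genes 0.118) than to knockout replicate 1 (0.170) or 3 (0.180), whereas knockout replicates 1 and 3 differed by 0.103. Values of the 10 genes, their ratios and the list medians are therefore given with and without it. This library was singled out from these same values for its nearness to the wild type. All p-values without it depend on that choice and are descriptive. Values come from bulk cultures, in which fewer cells holding a transcript and less of it per cell cannot be told apart.

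**Figure D1:**
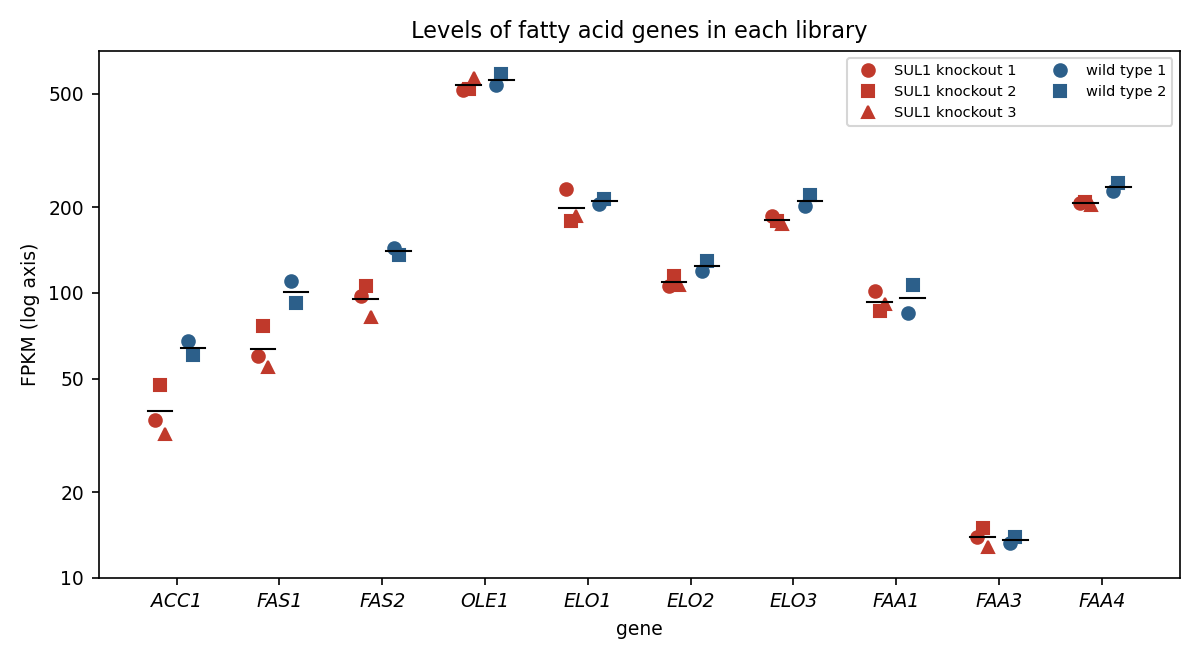
FPKM (log axis) of the 10 genes in each of the 3 knockout and 2 wild-type libraries, with black bars at the group means. The ACC1, FAS1 and FAS2 points of the knockout all lie below those of the wild type, and knockout replicate 2 is the highest of the 3 for each of these genes.

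Transcripts of the carboxylase and of both synthase subunits were lower in every knockout library than in either wild-type library. ACC1 (YNR016C, chrXIV:654673-661374, minus strand, 1 coding exon of 6702 bp) read 35.78, 47.50 and 32.01 FPKM in knockout replicates 1, 2 and 3. In wild-type replicates 1 and 2 it read 67.9 and 60.4 FPKM. The groups did not overlap, and the knockout library nearest to the wild type was replicate 2. The means were 38.4 ± 8.08 FPKM (SD, n = 3) and 64.2 ± 5.30 (SD, n = 2), a log2 fold change on the log2(FPKM + 1) scale of -0.74 ± 0.17 (SE). This was a change of -40.2% with a 95% interval from -54.5% to -21.4%, and it did not pass the threshold of 0.05 over all genes (limma, adjusted p = 0.1504).

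FAS1 (YKL182W, chrXI:100671-106826, plus strand, 1 coding exon of 6156 bp) encodes the beta subunit, which holds the acetyl, malonyl and palmitoyl transferase, dehydratase and enoyl reductase activities. Its levels were 60.0, 76.3 and 55.1 FPKM in the knockout and 110 and 92.1 FPKM in the wild type. Again replicate 2 was the highest of the knockout and no value overlapped. The log2 fold change was -0.67 ± 0.15 (SE), or -36.9% (limma, adjusted p = 0.157).

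FAS2 (YPL231W, chrXVI:108652-114315, plus strand, 1 coding exon of 5664 bp) encodes the alpha subunit, with the acyl carrier, ketoacyl synthase and ketoacyl reductase parts. It read 97.8, 106 and 82.6 FPKM in the knockout and 144 and 136 FPKM in the wild type, without overlap. The log2 fold change was -0.55 ± 0.12 (SE), or -31.9% (limma, adjusted p = 0.132).

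None of the 10 genes passed the threshold with all 5 libraries, where 0.263% of the 5712 genes tested did (limma, 15 genes, 0.193% of all as higher and 0.07% as lower). At an unadjusted p under 0.05, 4 of the 10 were lower (ACC1, FAS1, FAS2 and ELO3) and none higher, where 11.6% of all genes were lower and 6.92% higher. In 6 of the 10 every knockout library was below every wild-type library, where this held for 28% of all genes, and in none was it the other way round, where this held for 13.1%. The log2 fold change was negative in 9 of the 10, as it was in 62.6% of all genes tested. The median of the 10 was -0.19, against -0.07 over all genes, and without knockout replicate 2 these were -0.21 and -0.079.

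Without knockout replicate 2, ACC1, FAS1 and FAS2 passed the threshold as lower in the knockout. Their log2 fold changes were then -0.90 ± 0.11, -0.80 ± 0.11 and -0.63 ± 0.10 (SE), with adjusted p of 0.00336, 0.00582 and 0.0111 (limma). They are 3 of the 10 genes, and in the same fit 10.5% of all genes were called lower and 5.22% higher. Leaving out the knockout library nearest to the wild type itself favours calls, and the genes called rose from 15 to 896. Leaving out any other single library called none of the 10.

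**Figure D2:**
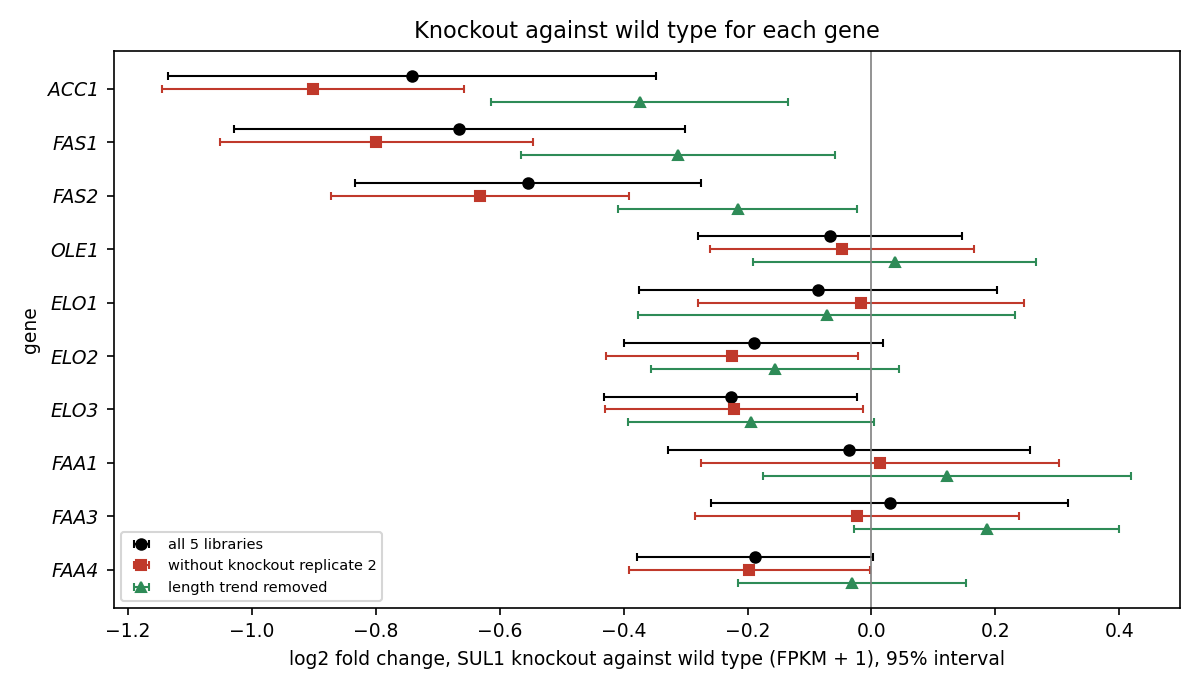
Log2 fold change of each gene, knockout against wild type, with 95% intervals from limma, for all 5 libraries, without knockout replicate 2, and after removal of the length trend. ACC1, FAS1 and FAS2 lie farthest to the left in each fit, and their values after removal of the length trend are -0.37, -0.31 and -0.22.

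ACC1, FAS1 and FAS2 are also the longest of the 10 genes, and fold changes ran with coding length across the whole table. Of 73 genes of at least 5000 bp other than Ty retrotransposon frames, 72 had a negative log2 fold change, with a median of -0.39. The 38 Ty frames of that length had a median of 0.21. The 2191 genes under 1000 bp had a median of 0.06. Among the 70 other long genes, 3 lay lower than ACC1, 4 lower than FAS1 and 10 lower than FAS2 (the bound of 5000 bp was chosen after the data were seen).

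The long genes also followed the libraries. Their median deviation from the mean of the 5 libraries was -0.20, 0.07 and -0.35 (log2) in knockout replicates 1, 2 and 3, and 0.26 and 0.20 in wild-type replicates 1 and 2. When a smooth trend on length was taken off each library, the log2 fold change of ACC1 was -0.37 ± 0.10 (SE), that of FAS1 -0.31 ± 0.11 and that of FAS2 -0.22 ± 0.08 (limma, adjusted p = 0.297, 0.375 and 0.413). All 3 kept their direction. The trend taken off was -0.37, -0.35 and -0.34, and in this fit none of the 10 was called, where 0.105% of all genes were. With the length trend removed and knockout replicate 2 then left out, ACC1 was called lower at an adjusted p of 0.0476 (limma, 1.72% of all genes called lower). It was not called when the trend was fitted without Ty frames (limma, adjusted p = 0.0536, 1.65% of all genes called lower), and FAS1 and FAS2 were called in neither fit. In both fits the trend came from deviations from the mean of all 5 libraries, so knockout replicate 2 still entered it.

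**Figure D3:**
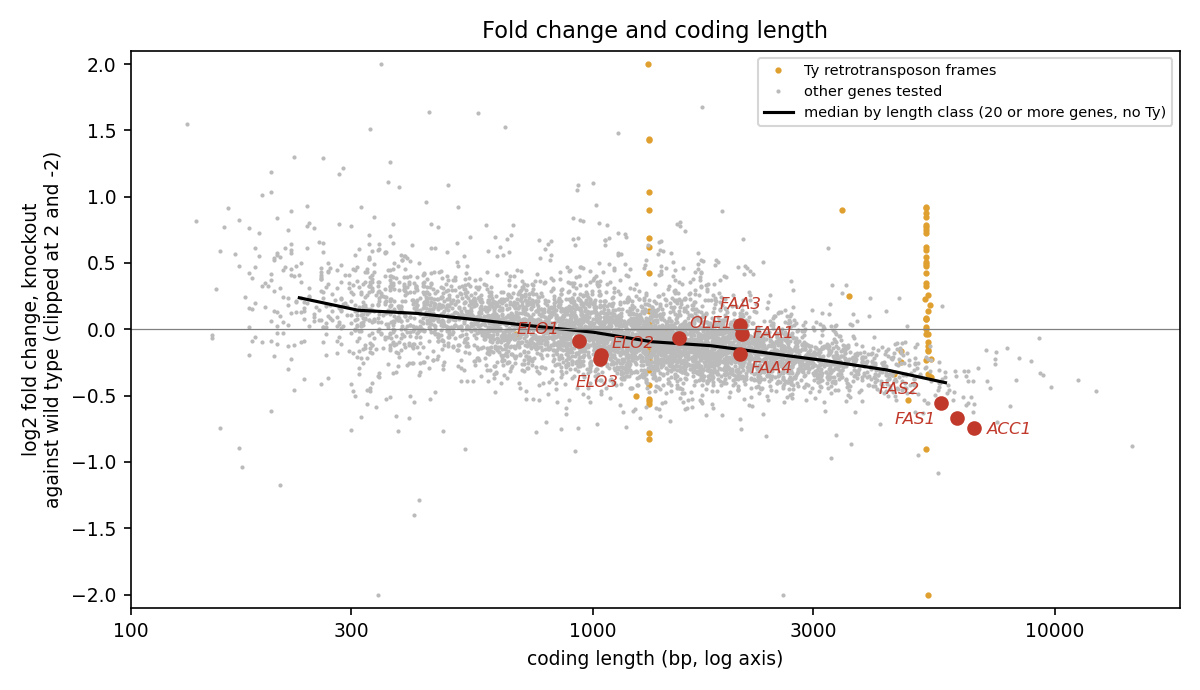
Log2 fold change (knockout against wild type, clipped at 2 and -2) against coding length in bp on a log axis, with Ty frames in orange, other genes in grey, their median by length class as a line, and the 10 genes in red. The line falls with length, and ACC1, FAS1 and FAS2 lie below it at the long end.

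The carboxylase and the synthase subunits had similar profiles across libraries. The log2 ratio of FAS1 to FAS2 within a library, which does not depend on how libraries were scaled, averaged -0.59 ± 0.12 (SD, n = 3) in the knockout and -0.47 ± 0.13 (SD, n = 2) in the wild type, and the groups overlapped (exact permutation test, two-sided, p = 0.4). In linear terms the knockout libraries had 0.613 to 0.721 FAS1 for each FAS2, against 0.677 to 0.767 for wild-type libraries. For ACC1 per FAS1 the knockout range was 0.581 to 0.623 and the wild-type range 0.616 to 0.656, also with overlap (exact permutation test, two-sided, p = 0.4). Without knockout replicate 2 the difference between the groups went from -0.11 to -0.17 for FAS1 per FAS2 and from -0.084 to -0.11 for ACC1 per FAS1, on the log2 scale. Over the 7 pairs of genes compared, no p adjusted for the 7 was below 0.467, and 3 against 2 libraries cannot go below 0.2 before adjustment.

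The gene profiles nearest to the mean profile of ACC1, FAS1 and FAS2 were BEM2, GCN1, RRP5, TOS1 and SPT6, out of 5037 other genes whose mean reached 10 FPKM. Nearness was the root mean square difference of log2(FPKM + 1), centred on each gene's mean, over the 5 libraries, and ran from 0.0613 for BEM2 to 0.0881 for SPT6. BEM2 (a GTPase activator in cell polarity) has a coding length of 6504 bp, GCN1 (an activator of the Gcn2 kinase) 8019 bp, RRP5 (ribosome assembly) 5190 bp and SPT6 (a transcription elongation factor) 4356 bp. TOS1, a cell wall protein, was the short one at 1368 bp and read 173, 199 and 169 FPKM in the knockout and 278 and 267 FPKM in the wild type.

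**Figure D4:**
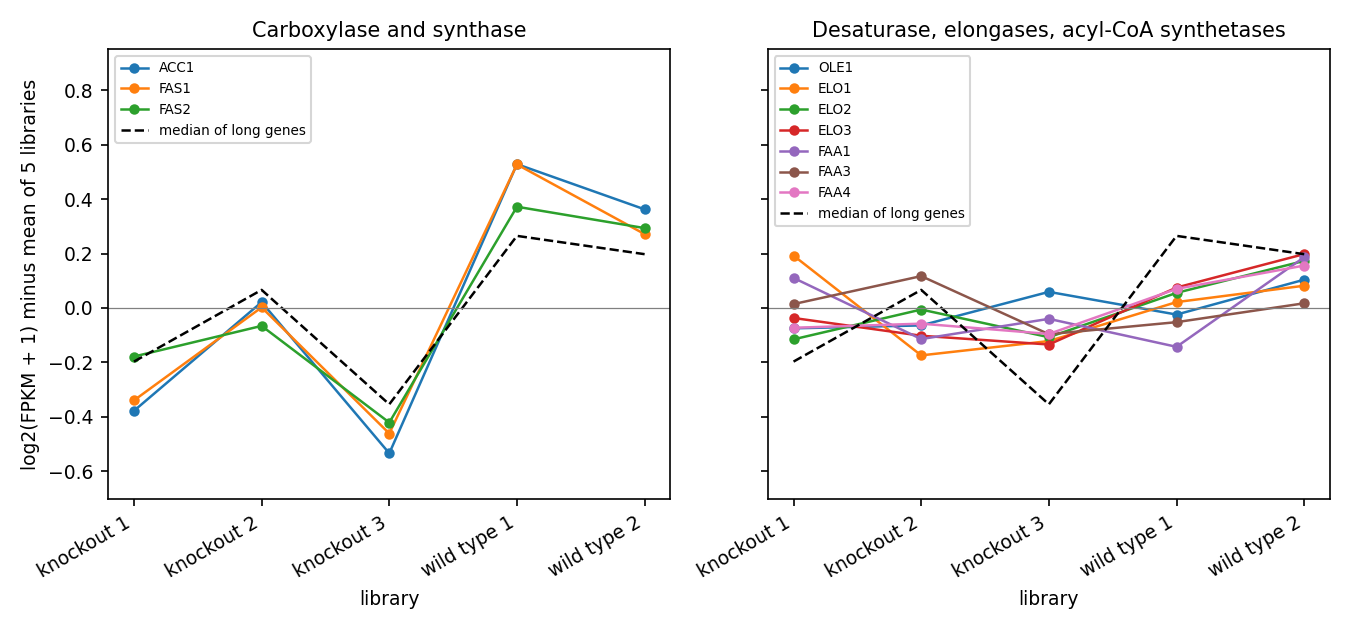
Log2(FPKM + 1) minus the mean of the 5 libraries, by library, for ACC1, FAS1 and FAS2 (left) and the other 7 genes (right), with the median of the 73 genes of at least 5000 bp other than Ty frames as a dashed line. On the left the lines share a shape that peaks in wild-type replicate 1, with knockout replicate 2 above knockout replicates 1 and 3, and on the right they stay between -0.17 and 0.20.

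OLE1 (YGL055W, chrVII:398628-400160, plus strand, 1533 bp), the only fatty acid desaturase of yeast, was the most abundant of the 10. It read 517, 521 and 567 FPKM in the knockout and 535 and 585 FPKM in the wild type, and the groups overlapped. Its log2 fold change was -0.07 ± 0.09 (SE), with a 95% interval from -17.6% to 10.7% (limma, adjusted p = 0.699). The value was -0.048 without knockout replicate 2 and turned to 0.037 after removal of the length trend.

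Set against the synthase subunit FAS1, the desaturase transcript was relatively more abundant in the knockout libraries, which mostly restates the lower FAS1 level. The log2 fold change was -0.67 for FAS1 and -0.07 for OLE1, and the median of all genes tested was also -0.07. OLE1 stood at 8.62, 6.83 and 10.3 times FAS1 in knockout replicates 1, 2 and 3 and at 4.86 and 6.35 times FAS1 in the wild type. The groups did not overlap. The difference in the log2 ratio was 0.61 (means 3.08 ± 0.30, SD, n = 3, and 2.47 ± 0.27, SD, n = 2), at the smallest p this design allows (exact permutation test, two-sided, p = 0.2). The difference was 0.76 without knockout replicate 2 and 0.33 with the length trend removed. Whether ratios of other genes to FAS1 also separated the groups was not tested, so the difference is not shown to be particular to OLE1.

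The elongases showed smaller differences. ELO1 (YJL196C, chrX:67850-68782, minus strand, 933 bp), which extends medium-length acids, read 231, 179 and 186 FPKM in the knockout and 205 and 214 FPKM in the wild type. Knockout replicate 1 was above both wild-type libraries and the other knockout libraries below them. The log2 fold change was -0.086 ± 0.12 (SE, limma, adjusted p = 0.714). It was -0.016 without knockout replicate 2 and -0.20 without knockout replicate 1, and turned to 0.0048 when knockout replicate 2 and the length trend were both taken out.

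ELO2 (YCR034W, chrIII:190592-191635, plus strand, 1044 bp) and ELO3 (YLR372W, chrXII:867354-868391, plus strand, 1038 bp) make the very long chains of sphingolipids. ELO2 read 106, 114 and 107 FPKM in the knockout and 119 and 130 FPKM in the wild type, without overlap. ELO3 read 187, 179 and 175 FPKM in the knockout and 202 and 220 FPKM in the wild type, also without overlap. Their log2 fold changes were -0.19 ± 0.09 and -0.23 ± 0.09 (SE), without a call (limma, adjusted p = 0.297 and 0.238). Both are short, and after removal of the length trend they kept most of their size, at -0.16 and -0.19. They were -0.23 and -0.22 without knockout replicate 2, also without a call (limma, adjusted p = 0.114 and 0.126).

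Shares within the elongase family varied little between libraries. ELO1 took 38.0% to 44.1% of the summed FPKM of the 3 genes over the 5 libraries, ELO3 35.7% to 39.0% and ELO2 20.2% to 24.2%. The log2 ratio of ELO2 to ELO3 differed by 0.04 between the groups (exact permutation test, two-sided, p = 0.8), and that of ELO1 to ELO3 by 0.14 (p = 0.4, same exact test). These differences were -0.0044 and 0.21 without knockout replicate 2.

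Of the acyl-CoA synthetases, FAA4 alone had groups that did not overlap. FAA4 (YMR246W, chrXIII:759807-761891, plus strand, 2085 bp), with FAA1 one of the main enzymes for imported fatty acids, read 207, 209 and 204 FPKM in the knockout and 229 and 243 FPKM in the wild type. The SD was 2.74 FPKM in the knockout (n = 3) and 9.93 FPKM in the wild type (n = 2). The log2 fold change was -0.19 ± 0.08 (SE, limma, adjusted p = 0.274). It was -0.20 without knockout replicate 2 (limma, adjusted p = 0.140) and -0.031 after removal of the length trend.

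FAA1 (YOR317W, chrXV:909343-911445, plus strand, 2103 bp) read 101, 86.6 and 91.2 FPKM in the knockout and 84.9 and 107 FPKM in the wild type, so the wild-type pair enclosed the knockout. Its log2 fold change was -0.04 ± 0.12 (SE, limma, adjusted p = 0.891), and its sign changed to 0.013 without knockout replicate 2 and to 0.12 with the length trend removed. FAA3 (YIL009W, chrIX:339344-341428, plus strand, 2085 bp), an isozyme of lower abundance, read 13.9, 15 and 12.8 FPKM in the knockout and 13.2 and 13.9 FPKM in the wild type. Its log2 fold change was 0.03 ± 0.12 (SE, limma, adjusted p = 0.912), with a 95% interval from -16.4% to 24.6%, and turned to -0.024 without knockout replicate 2.

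FAA4 supplied 64.2% to 70.0% of the summed FPKM of the 3 synthetases, FAA1 26.0% to 31.5% and FAA3 3.83% to 4.83%. The ratio of FAA3 to FAA4 was 0.0671, 0.0717 and 0.0628 in the knockout and 0.0579 and 0.0574 in the wild type, without overlap. Its difference of 0.22 on the log2 scale was at the smallest p of the design (exact permutation test, two-sided, p = 0.2). FAA3 and FAA4 have the same coding length, and the difference was also 0.22 with the length trend removed. It was 0.17 without knockout replicate 2.

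By mean FPKM over the 5 libraries the order of levels was OLE1 (545), FAA4 (218), ELO1 (203), ELO3 (192), ELO2 (115), FAS2 (113), FAA1 (94.2), FAS1 (78.7), ACC1 (48.7) and FAA3 (13.8). OLE1 and FAA4, ELO3 and ELO2, and ACC1 and FAA3 were neighbours whose library ranges did not overlap. The ranges of the other neighbours did. One pair changed places with genotype in all 5 libraries. FAS2 was below ELO2 in 3 of 3 knockout libraries and above it in 2 of 2 wild-type libraries. These genes differ in length, and the length trend in the log2 fold change was -0.34 for FAS2 and -0.034 for ELO2. Whether their order would still change with that trend removed was not tested. None of the 50-base words of the 10 coding regions occurred elsewhere in the reference, so reads of that length would not be shared with paralogs such as HFA1.

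The surrounding pathway was described through lists of genes by function, and none of their members passed the threshold over all genes with all 5 libraries. Without knockout replicate 2, 6 of the 65 genes on the lists were called lower and 2 higher, where 10.5% and 5.22% of all genes were. Each list median below is given with all 5 libraries, then without knockout replicate 2 and then with the length trend removed, beside -0.07, -0.079 and -0.00094 for all genes. Cytosolic acetyl-CoA supply (ALD6, ACS1 and ACS2, 0 of 3 called) had medians of 0.074, 0.11 and 0.24. The first turned to -0.22 without wild-type replicate 1 and to -0.010 with equal FPKM sums. ALD6, which makes the acetate, read 176, 141 and 211 FPKM in the knockout and 89.6 and 229 FPKM in the wild type. ACS2, the acetyl-CoA synthetase of glucose-grown cells, read 129, 126 and 116 FPKM in the knockout and 143 and 144 FPKM in the wild type (-0.22 ± 0.09 SE, limma, adjusted p = 0.256).

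The remaining enzymes of the elongation cycle (IFA38, PHS1 and TSC13, 0 of 3 called) had medians of -0.075, -0.027 and -0.12. TSC13, the enoyl reductase, had -0.21 ± 0.10 and PHS1, the dehydratase, -0.08 ± 0.09 (SE, limma, adjusted p = 0.288 and 0.662). The separate mitochondrial pathway (0 of 8 called) had medians of -0.079, -0.15 and 0.044, with 5 negative and 3 positive values in the first fit. Its acetyl-CoA carboxylase HFA1, the mitochondrial relative of ACC1, read 4.09, 5.03 and 4 FPKM in the knockout and 5.63 and 5.66 FPKM in the wild type (-0.31 ± 0.17 SE), and 0.05 with the length trend removed. The reductase OAR1 read 3.84, 8.98 and 4.36 FPKM in the knockout and 9.63 and 7.21 FPKM in the wild type, with knockout replicate 2 among the wild-type values, and passed without that library (limma, adjusted p = 0.0171).

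Regulators of synthesis and desaturation (0 of 10 called) had medians of -0.17, -0.25 and -0.019. INO2 read 13.0, 48.9 and 19.6 FPKM in the knockout and 59.1 and 34.1 FPKM in the wild type. Knockout replicate 2 lay between the wild-type libraries, and knockout replicates 1 and 3 lay below both. The log2 fold change of -0.92 ± 0.61 (SE) was not called (limma, adjusted p = 0.453). Without knockout replicate 2, INO2 was not called either (limma, adjusted p = 0.0611). Its partner INO4 had 0.09 ± 0.12 and the repressor OPI1 -0.20 ± 0.22 (SE, both chosen after their values were seen). RSP5, the ubiquitin ligase that acts on the OLE1 activators Spt23 and Mga2, read 18.9, 20.4 and 18.2 FPKM in the knockout and 27.2 and 26.2 FPKM in the wild type, without overlap (-0.46 ± 0.10 SE, limma, adjusted p = 0.148). It passed without knockout replicate 2 (limma, adjusted p = 0.0185). With all 5 libraries and the length trend removed, the log2 fold change of RSP5 was -0.27.

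Phospholipid genes grouped under control by Ino2 and Ino4 (0 of 10 called) were negative in 9 cases, with medians of -0.18, -0.20 and -0.11. That control was not tested for each member and may not hold for all, such as PIS1. CHO2, the first methyltransferase of phosphatidylcholine synthesis, had -0.39 ± 0.19 (SE). OPI3, which carries out the following methylations, read 404, 260 and 440 FPKM in the knockout and 274 and 266 FPKM in the wild type (0.41 ± 0.22 SE), with knockout replicate 2 at the wild-type level (limma, adjusted p = 0.309 for CHO2 and 0.341 for OPI3). Without that library 2 of the 10 were called lower, CHO2 and EPT1, a phosphotransferase named after its value was seen, and 1 higher, OPI3 (limma, adjusted p = 0.0408, 0.0275 and 0.00567). In that fit 10.5% of all genes were called lower and 5.22% higher. With all 5 libraries and the length trend removed, CHO2 was at -0.19, EPT1 at -0.24 (-0.30 before removal) and OPI3 at 0.36.

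Genes of glycerolipid and steryl ester synthesis (0 of 10 called) had medians of -0.097, -0.12 and 0.044, with 7 negative and 3 positive values in the first fit. The list is labelled acyl-CoA users, although not every member uses acyl-CoA. The acyltransferase SCT1 read 29.6, 32.3 and 25.2 FPKM in the knockout and 36.1 and 38.7 FPKM in the wild type (-0.36 ± 0.12 SE, limma, adjusted p = 0.220). The reductase AYR1 read 254, 184 and 240 FPKM in the knockout and 167 and 185 FPKM in the wild type (0.35 ± 0.15 SE, limma, adjusted p = 0.264). Without knockout replicate 2, 2 of the 10 were called lower, SCT1 and the sterol acyltransferase ARE2, which was named after its value was seen, and 1 higher, AYR1 (limma, adjusted p = 0.0360, 0.0309 and 0.0150). The shares of all genes called in that fit were 10.5% lower and 5.22% higher. With all 5 libraries and the length trend removed, SCT1 was at -0.19, ARE2 at -0.20 (-0.34 before removal) and AYR1 at 0.36. Sphingolipid synthesis (0 of 10 called) had medians of -0.12, -0.073 and -0.068. AUR1, the inositol phosphorylceramide synthase, had -0.30 ± 0.12 (SE) and LIP1, a ceramide synthase subunit, 0.23 ± 0.08 (limma, adjusted p = 0.243 and 0.226).

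Genes of fatty acid import, activation and binding outside the 10 (0 of 5 called) had medians of -0.024, 0.016 and 0.18. FAA2, the peroxisomal synthetase, had 0.14 ± 0.14 and PXA2, a subunit of the peroxisomal acyl-CoA transporter, -0.08 ± 0.18 (SE, limma, adjusted p = 0.598 and 0.834). Lipases of stored lipid (0 of 6 called) had medians of -0.037, -0.021 and 0.11, with YEH2 at -0.14 ± 0.10 and TGL4 at -0.10 ± 0.10 (SE, limma, adjusted p = 0.451 and 0.598).

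**Figure D5:**
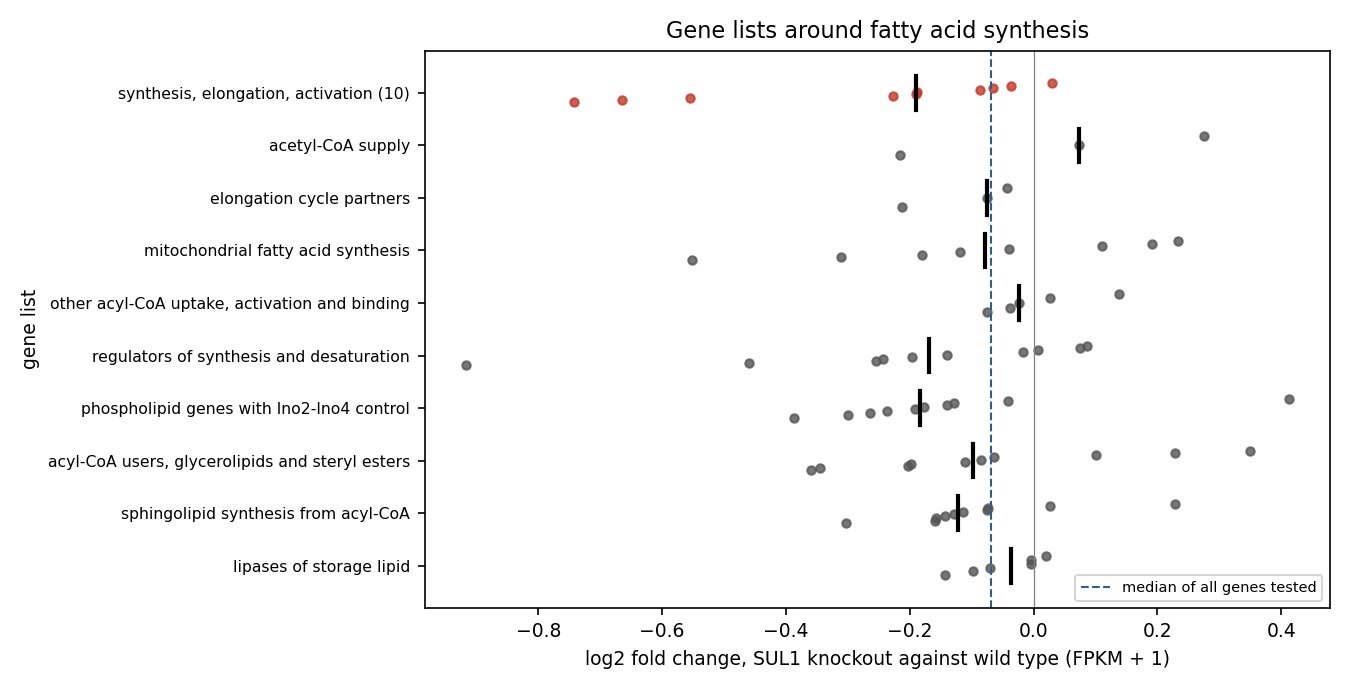
Log2 fold change (knockout against wild type, limma) of every tested gene of each list, 1 point per gene, with the list median as a black bar and the median of all genes tested as a dashed line at -0.07. In the top row ACC1, FAS1 and FAS2 lie apart from the other 7 genes, and among the other lists INO2 lies farthest to the left.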

How the data were processed

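Messenger RNA of 3 SUL1 knockout and 2 wild-type libraries was analysed from 5 columns of FPKM in the authors' deposited tables, 1 table per strain. The submitters' processing notes list RSEM 1.3.1, HISAT2 2.1.0, Bowtie2, DESeq2 1.4.5 and build R64, and give no roles. The annotation is not given in the sources used here. Of 5886 gene identifiers, 5883 matched the R64 reference. Lengths are coding lengths, as this reference has no UTRs.

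Log2(FPKM + 1) was tested with limma 3.58.1 in R 4.3.3 (trended prior variance, robust) on the 5712 genes averaging 1 FPKM or more, which include all 10 members, with genotype as the only term. P-values were adjusted by Benjamini-Hochberg over all of them, at 0.05. A lone wild-type library is taken to vary as the knockout libraries do. The procedure was tested on simulated data. Ratios within libraries had exact permutation tests in scipy 1.17.1. The length trend was a lowess curve (span 0.5) of each library's deviation from the gene mean on log2 coding length. That mean was taken over all 5 libraries, also for fits without knockout replicate 2.

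Depth was found as the fragment number and length offset (135 to 145 bp) that made low values whole multiples of 1 fragment. Of 99 to 122 values per library, 87.0% to 92.6% were then whole to within 0.15, against 30% for any depth taken at random. The depth and offset were the best of many tried, for which a share above 30% would arise without any true steps. The other settings tried are in the closing section, and fitting the length trend without Ty frames was added after seeing the data. Members and lists were chosen with earlier results of these data known. From each list the 2 largest absolute log2 fold changes are named, unless a member was called. The limma p-values set a difference against the spread between libraries, estimated in part from other genes. Whether that spread covers more than 1 knockout clone is not given. Nothing in the labels links same-numbered libraries of the groups.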

Additional observations from a re-analysis of the deposited data

How the results depend on the processing

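Leaving out single libraries gave 0 to 896 called genes against 15, and 0 to 3 called members against 0. The low end for genes belongs to the 2 fits that each leave out a wild-type library. The low end for members belongs to every fit that keeps knockout replicate 2. The 896 and the 3 members came without knockout replicate 2, where adding the length trend left 1 member. Equal FPKM sums gave 8 called genes and removal of the length trend 6, with or without Ty frames in its fit (an alternative chosen after seeing the data). The replicate block gave 0 called genes, alone or with the length trend removed (limma, 399 and 274 genes with unadjusted p under 0.05), and 0 called members. Knockout replicate 3 has no same-numbered wild-type library, so the block takes it out of the comparison. The loss of calls therefore cannot be put down to pairing alone. Deviations of same-numbered libraries correlated at -0.40 and -0.45 across genes, and those of knockout replicate 2 and wild-type replicate 1 at 0.45. The deviations of 2 wild-type libraries mirror each other, so these correlations cannot decide whether the numbers pair libraries. ACC1, FAS1, FAS2, ELO2, ELO3 and FAA4 were negative with all 5 libraries and in all 17 alternatives run for them. These are not 17 separate checks. Changes to the filter on low values and a constant prior variance leave a fold change as it is. The replicate block alone repeats the fold changes found without knockout replicate 3. Without single libraries ACC1 ran from -0.90 to -0.62, FAS1 from -0.80 to -0.54 and FAS2 from -0.63 to -0.45. FAA1 turned positive with equal median ratios (0.024), with the length trend removed (0.12, and 0.10 with the replicate block) and in leave-one-out fits (-0.20 to 0.13). ELO1 ran from -0.20 to -0.016 without single libraries. OLE1 turned to 0.037 with the length trend removed, with or without Ty frames. FAA3 turned to -0.057 with equal sums and ran from -0.024 to 0.083 without single libraries, and the ELO2 to ELO3 ratio from -0.0044 to 0.084. The cause of these changes was not tested.

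List medians moved by more than their spread between replicates as follows. With equal sums, where the median of all genes was -0.16, they were -0.010 for acetyl-CoA supply, -0.17 for elongation partners, -0.17 for the mitochondrial pathway, -0.11 for other activation, -0.28 for phospholipid genes, -0.19 for acyl-CoA users and -0.13 for lipases. With equal median ratios they were 0.031 for other activation, -0.12 for phospholipid genes and -0.038 for acyl-CoA users. With the length trend removed they were 0.24 for acetyl-CoA supply, 0.044 for the mitochondrial pathway (0.052 without Ty frames in the fit), 0.18 for other activation, -0.019 for regulators, -0.11 for phospholipid genes, 0.044 for acyl-CoA users and 0.11 for lipases. With the replicate block added to this they were 0.19, 0.050, 0.14, -0.028, -0.082, 0.050 and 0.12 in the same order, and -0.18 for elongation partners. The mitochondrial median was 0.036 over genes averaging 10 FPKM or more and 0.023 with the replicate block alone. Without single libraries the medians ran from -0.22 to 0.11 for acetyl-CoA supply, -0.15 to 0.023 for the mitochondrial pathway, -0.018 to 0.016 for other activation, -0.25 to -0.15 for phospholipid genes and -0.23 to -0.013 for sphingolipid genes. Depth limits FAA3 most among the 10 genes, with 609 to 713 fragments per library.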
